A study of Mus musculus with 12 samples.

Results

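Mouse lines labelled rsEpiSC, derived from the epiblast at embryonic day (E) 6.5, were compared with embryonic stem cells (ESC) derived at E3.5. The comparison takes 4 of the 12 expression arrays of the study, 2 of rsEpiSC E6.5 and 2 of ESC, chosen by their labels. It covers 21065 autosomal genes of the 22180 genes that had a probe set with 1 gene symbol. The rsEpiSC lines grew in N2B27 medium with IWR1 at 2.5 µM, which stabilises the beta-catenin destruction complex and so lowers Wnt signalling. Their medium also held 20 ng/ml of another agent, whose name is missing from the labels. Other label fields call them intrinsic state epiblast stem cells. ESC grew in N2B27 with CHIR99021 at 3 µM, an inhibitor of the kinase GSK3 that raises beta-catenin, PD0325901 at 1 µM, an inhibitor of the kinase MEK, and LIF at 10 µg/ml. A pair of other cultured groups, 2 arrays each, serves to show where rsEpiSC E6.5 differs from its nearest relatives: rsEpiSC derived at E5.75 in the same medium, and EpiSC, conventional epiblast stem cells also of E5.75, kept in FGF2 (12 ng/ml), 20 ng/ml Activin A and, at 20%, serum replacement. Mouse embryonic fibroblasts served as feeders throughout, and the strain field of every group names a cross of OCT4-deltaPE-GFP, an Oct4 GFP reporter, with C57BL. Epiblast tissue of E5.75 and E6.5 makes up the other 4 arrays. Stage of derivation and medium differ together between rsEpiSC E6.5 and ESC and cannot be told apart. The labels do not say whether the arrays of a group are separate lines or cultures. The p-values therefore cover only the spread within the groups of these 12 arrays, and how much of that spread is technical was not tested.

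Pluripotency exists in several forms. Naive cells resemble the epiblast before implantation: LIF acting through STAT3, with inhibition of MEK and GSK3, maintains a network of transcription factors that includes Klf4, Esrrb and Tfcp2l1. Primed cells resemble the epiblast after implantation, lose that network, express Otx2 and Fgf5, acquire DNA methylation with Dnmt3b, and are usually maintained by FGF and Activin signalling.

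All levels are log2 signals of the array. A difference is the mean of rsEpiSC E6.5 minus the mean of the group named (n = 2 arrays in each group). It is given ± its SE from the linear model, fitted to all 12 arrays. Each SE and p-value thus rests on a spread shared over the 6 groups, epiblast tissue included. The words rose and fell are kept for genes with an adjusted p under 0.05 in limma. The arrays of rsEpiSC E6.5 correlated at 0.988 over autosomal genes and those of ESC at 0.966. A 2-fold difference between the arrays of a group was seen for 1.22% of genes in rsEpiSC E6.5 and 7.48% in ESC. Genes of the sex chromosomes are left out of the comparison. The Y-linked gene Eif2s3y was at 7.64 and 7.36 in rsEpiSC E6.5, against 2.72 and 8.19 in ESC, so the ESC arrays differed from each other in it. Uty, another Y-linked gene, was at 5.87 and 5.89 in rsEpiSC E6.5, against 2.71 and 5.17 in ESC. Its ESC arrays differed in the same direction as those of Eif2s3y. Kdm5d, also Y-linked, was at 6.30 and 6.14 in rsEpiSC E6.5, against 2.51 and 2.14 in ESC, and was low on both ESC arrays. Xist, the RNA that silences an X chromosome, was at 3.17 and 2.65 in rsEpiSC E6.5, against 5.96 and 5.64 in ESC. The sex of the lines is not given in the labels, and its part in the autosomal differences was not tested. Results are therefore also given with each array left out. Markers of feeder fibroblasts were checked as a list of 19: 1 rose (Mmp2, 2.25 ± 0.41) and none fell, and the median difference was 0.19. The share that passed was 5.26%, beside 8.89% of all autosomal genes. Their summed signal on a linear scale was 762 and 833 in rsEpiSC E6.5, against 519 and 570 in ESC, and its part in other differences was not tested. Mmp2 did not pass without rsEpiSC E6.5 replicate 2.

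Of the 21065 autosomal genes, 919 rose (4.36%) and 953 fell (4.52%), 8.89% together. All 1872 had groups that did not overlap, as did 51.5% of all autosomal genes, and 1730 differed at least 2-fold (8.21%). At an unadjusted p under 0.05 there were 4118 genes (19.5%). The median difference of all autosomal genes was 0.02. Counts of members of the gene lists below are to be read beside these shares. With an array left out, the lone array of its group being assumed to vary like the other groups, 1891 genes passed without ESC replicate 1 (1005 rose, 886 fell), 1262 without ESC replicate 2 (510 and 752), 855 without rsEpiSC E6.5 replicate 1 (392 and 463) and 781 without rsEpiSC E6.5 replicate 2 (352 and 429). The genes that passed lay on all 19 autosomes. Their share ran from 7.24% of the genes of chromosome 2 to 13.7% on chromosome 18, and the median difference per chromosome from -0.01 to 0.04.

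**Figure D1:**
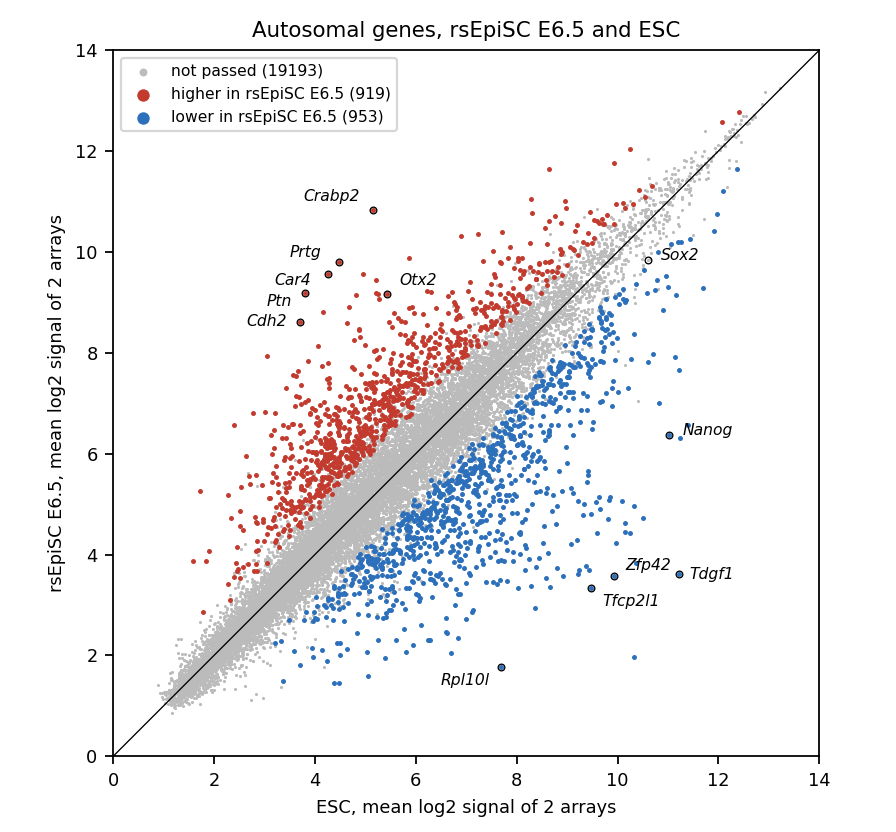
Mean log2 signal of each autosomal gene in rsEpiSC E6.5 (vertical axis) and in ESC (horizontal axis), each over 2 arrays. Red genes rose (919), blue genes fell (953), grey genes did not pass, and circled genes are named in the text. Crabp2 and Ptn lie far above the diagonal, Tdgf1 and Zfp42 far below it, and Sox2 close to it.

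Among the 15 genes with the highest differences were a growth factor, a retinoid binding protein, adhesion molecules and genes of neural progenitors. Crabp2, which carries retinoic acid to its nuclear receptor, had signals of 10.88 and 10.79 in rsEpiSC E6.5, against 5.09 and 5.22 in ESC (5.68 ± 0.25, adjusted p = 2.99e-07). Ptn, a secreted heparin-binding growth factor of the developing nervous system, was at 8.96 and 9.42 in rsEpiSC E6.5, against 4.20 and 3.42 in ESC (5.38 ± 0.38). Prtg, a surface protein of the immunoglobulin superfamily, was at 9.77 and 9.85 in rsEpiSC E6.5, against 4.54 and 4.41 in ESC (5.33 ± 0.24, adjusted p = 2.99e-07). None of these signals in rsEpiSC E6.5 came within 4 log2 units of the signals in ESC. Car4 and Car3 code for carbonic anhydrases, enzymes that interconvert carbon dioxide and bicarbonate, and rose by 5.30 ± 0.37 and 4.89 ± 0.65. Sox4, a transcription factor of progenitor cells, rose by 4.61 ± 0.25, and Dpysl2, a regulator of microtubules in growing axons, by 4.32 ± 0.32. Fabp7, the fatty acid binding protein of neural progenitors, was at 8.22 and 8.04 in rsEpiSC E6.5, against 4.08 and 4.06 in ESC (4.06 ± 0.44). Ccnd2, a D-type cyclin that drives entry into the cell cycle, was at 8.82 and 8.99 in rsEpiSC E6.5, against 5.72 and 3.62 in ESC (4.23 ± 0.53), and its ESC arrays were the ones that differed. The others of the 15 highest were Cdh2 (4.91 ± 0.60), Greb1l (4.65 ± 0.34), the ectoenzyme gene Enpp3 (4.23 ± 0.42), the solute carrier family gene Slc35f1 (4.03 ± 0.41), Nt5dc2 (4.01 ± 0.37) and the FGF receptor gene Fgfr2 (3.99 ± 0.32). All 15 passed with any of the 4 arrays left out.

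Among the genes that fell most were naive factors, a germline gene and a Nodal co-receptor. Tdgf1, which codes for Cripto, the co-receptor through which Nodal signals, had the lowest difference among named genes, which leave out clone and predicted symbols: 3.80 and 3.42 in rsEpiSC E6.5, against 11.51 and 10.91 in ESC (-7.60 ± 0.61, adjusted p = 1.34e-05). Rpl10l and Rps4l, relatives of the ribosomal protein genes Rpl10 and Rps4x, fell by 5.92 and 5.74. The signals of Rpl10l were 2.03 and 1.53 in rsEpiSC E6.5, against 8.17 and 7.21 in ESC (-5.92 ± 0.44). Trim25, a ubiquitin ligase of antiviral signalling, was at 3.61 and 3.95 in rsEpiSC E6.5, against 9.28 and 9.47 in ESC (-5.59 ± 0.29). Calcoco2, an autophagy receptor, fell as well (-5.43 ± 0.38), as did the water channel gene Aqp3 (-5.55 ± 0.49), the phospholipase gene Pla2g1b (-5.72 ± 0.37) and the myosin light chain gene Mylpf (-5.78 ± 0.47). The rest of the 15 lowest were Arl14epl (-6.53 ± 0.30), the zinc finger gene Zfp992 (-5.82 ± 0.56), the noncoding RNA Platr10 (-5.59 ± 0.39) and Gtsf1l (-5.52 ± 0.64, arrays at 5.64 and 3.62 in rsEpiSC E6.5), besides Rps4l (-5.74 ± 0.46) and the naive factors described next. All 15 passed with any array left out.

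Naive pluripotency genes fell almost without exception. Of 17 measured members, 16 fell and none rose, with a median difference of -4.06, beside 4.52% of all autosomal genes that fell and a median of 0.02. The count was 16 with any array left out. Zfp42 (Rex1), a zinc finger gene used as a marker of the naive state, averaged 3.57 in rsEpiSC E6.5 and 9.93 in ESC (-6.36 ± 0.42, adjusted p = 4.02e-06). Tfcp2l1, a transcription factor downstream of LIF and of GSK3 inhibition, was at 3.23 and 3.44 in rsEpiSC E6.5, against 9.34 and 9.61 in ESC (-6.14 ± 0.29). Tbx3, a T-box factor that responds to LIF, was at 4.48 and 4.40 in rsEpiSC E6.5, against 9.90 and 10.41 in ESC (-5.71 ± 0.29). In each, the ESC arrays stood more than 4 log2 units above those of rsEpiSC E6.5. Klf4, a reprogramming factor, fell by 4.66 on the log2 scale (4.68 and 4.94 in rsEpiSC E6.5, against 9.39 and 9.56 in ESC; SE 0.27). The orphan nuclear receptor gene Esrrb, a target relieved by GSK3 inhibition, was at 4.25 and 4.08 in rsEpiSC E6.5, against 6.62 and 6.80 in ESC (-2.55 ± 0.31). Fbxo15, a target of Oct4 and Sox2, also fell (-5.17 ± 0.30). Gbx2 was the member that did not pass (0.30 ± 0.26, adjusted p = 0.662).

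**Figure D2:**
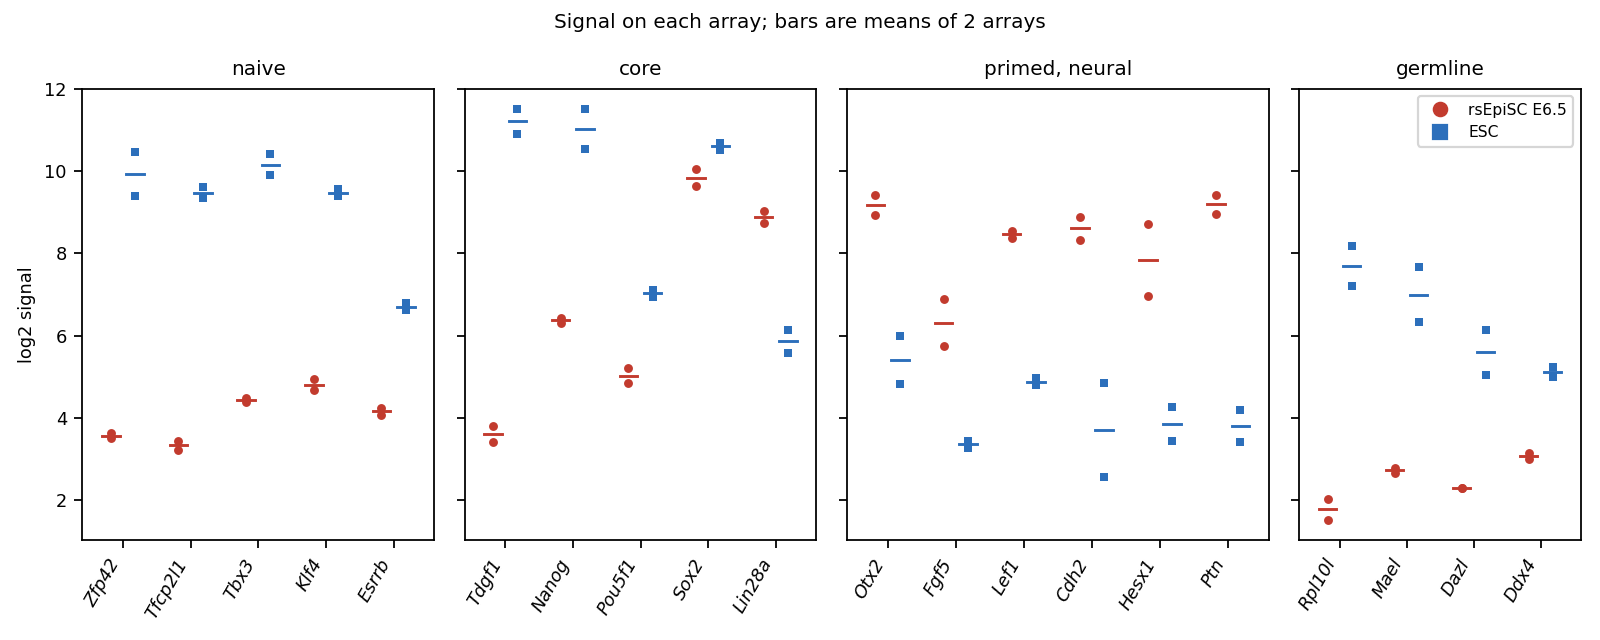
Log2 signal of 20 genes on each array, with rsEpiSC E6.5 as red circles and ESC as blue squares, and bars at the means of 2 arrays. The naive and germline genes lie higher in ESC, the primed and neural genes higher in rsEpiSC E6.5, and Sox2 within 1 log2 unit between the group means.

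The core pluripotency list moved unevenly: 6 of 13 measured members fell, 1 rose and 6 did not pass (median -0.77), and the same counts held with any array left out. Nanog, which stabilises the naive network, was at 6.44 and 6.32 in rsEpiSC E6.5, against 11.51 and 10.54 in ESC (-4.64 ± 0.35, adjusted p = 7.98e-06). Pou5f1, which codes for Oct4, was at 5.23 and 4.84 in rsEpiSC E6.5, against 6.95 and 7.11 in ESC (-1.99 ± 0.33, adjusted p = 0.00231). It was at 5.71 and 5.96 in EpiSC and at 5.82 and 5.75 in epiblast E6.5 tissue, and its probe set may also read processed copies of the gene. Sox2, the partner of Oct4, was at 9.63 and 10.05 in rsEpiSC E6.5, against 10.70 and 10.51 in ESC, a difference of -0.76 ± 0.24 that did not pass (adjusted p = 0.0755). Dppa2, a chromatin factor of the early embryo, and Gdf3, a ligand of the TGF-beta family, fell (-4.59 ± 0.40 and -4.49 ± 0.43), besides Tdgf1 above. Lin28a, which binds RNA and blocks maturation of the let-7 microRNAs, was the member that rose: 9.02 and 8.75 in rsEpiSC E6.5, against 5.58 and 6.15 in ESC (3.02 ± 0.29, adjusted p = 4.75e-05). Utf1, a chromatin factor of pluripotent cells, had overlapping groups (9.62 and 8.76 in rsEpiSC E6.5, against 8.75 and 9.22 in ESC; 0.20 ± 0.37, adjusted p = 0.895).

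Genes of the epiblast after implantation rose. Of 15 measured members of the primed list, 11 rose and none fell (median 2.16; 4.36% of autosomal genes rose). Otx2, the homeobox factor that directs exit from the naive state, was at 9.41 and 8.93 in rsEpiSC E6.5, against 6.00 and 4.84 in ESC (3.75 ± 0.33, adjusted p = 2.30e-05). Lef1, a transcription factor that partners beta-catenin, was at 8.54 and 8.39 in rsEpiSC E6.5, against 4.97 and 4.79 in ESC (3.59 ± 0.27), and Cdh2, which codes for N-cadherin, at 8.33 and 8.90 in rsEpiSC E6.5, against 4.85 and 2.55 in ESC. Fgf5, a growth factor whose transcription marks the epiblast, was at 6.88 and 5.75 in rsEpiSC E6.5, against 3.27 and 3.44 in ESC (2.96 ± 0.65, adjusted p = 0.0136). Both rsEpiSC E6.5 arrays lay above both ESC arrays for these genes, but those of Fgf5 were 1.13 apart. Fgf5 did not pass without either ESC array or without rsEpiSC E6.5 replicate 1, and the count of members that rose was between 8 and 11 with an array left out; without ESC replicate 2, 1 member fell. Foxd3, a repressor linked to the exit from naive pluripotency, and Etv5, a target of FGF signalling, had differences of -1.22 ± 0.49 and -1.16 ± 0.37 that did not pass.

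Anterior and neural ectoderm genes were the other large group that rose: 12 of 24 measured members, with none that fell and a median of 1.06. With an array left out, 10 or 11 rose. Hesx1, a homeobox repressor of the anterior neural plate, was at 8.71 and 6.97 in rsEpiSC E6.5, against 4.26 and 3.45 in ESC (3.99 ± 0.61, adjusted p = 0.00128). Tubb3, a neuronal beta-tubulin, was at 9.60 and 8.75 in rsEpiSC E6.5, against 6.98 and 3.52 in ESC (3.92 ± 0.82), and its ESC arrays lay far apart. Wnt1, a ligand of the midbrain-hindbrain border, was at 5.82 and 7.79 in rsEpiSC E6.5, against 4.04 and 3.78 in ESC (2.89 ± 0.47). Ptn, given above, belongs to the same list. Tubb3 did not pass without rsEpiSC E6.5 replicate 1. Sox21, a repressor of neural progenitors, did not pass (0.11 ± 0.36, adjusted p = 0.95).

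Genes of the posterior and of the germ layers of gastrulation passed in shares near or below the 8.89% of all autosomal genes: 5% of the primitive streak and mesoderm list, none of the Hox and caudal list, 10% of the definitive endoderm list and 12.5% of the visceral and primitive endoderm list. Of 20 primitive streak and mesoderm genes 1 rose, Nkx1-2, a homeobox gene of the posterior progenitors (1.57 ± 0.36, adjusted p = 0.017), and none fell (median -0.03). Nkx1-2 did not pass without ESC replicate 2 or rsEpiSC E6.5 replicate 1; the count of list members that passed was 2 without ESC replicate 1 and 0 without ESC replicate 2 or rsEpiSC E6.5 replicate 1. None of 20 Hox and caudal genes passed in limma, 1 of them with an unadjusted p under 0.05, and their differences ran from -0.86 to 0.31. Their signals were low. The highest over both groups, Hoxb5 and Hoxd8, each averaged 4.70 in rsEpiSC E6.5, where the medians of the arrays were 4.69 and 4.66. At such levels a lack of calls cannot tell unchanged genes from genes that are not expressed. In the definitive endoderm list 1 of 10 fell, Prdm1, the repressor also used by germ cells (-1.51 ± 0.35), which did not pass without ESC replicate 2 or without either rsEpiSC E6.5 array. In the visceral and primitive endoderm list 1 of 16 rose (Dab2, an endocytic adaptor, 1.47 ± 0.39) and 1 fell (Apoe, a lipid carrier, -1.32 ± 0.28); the adaptor gene lost its call without ESC replicate 2 or either rsEpiSC E6.5 array, and the carrier gene without ESC replicate 2 or rsEpiSC E6.5 replicate 1. In the trophoblast list Tead4, a transcription factor of the trophectoderm, averaged 5.08 in rsEpiSC E6.5 and 7.68 in ESC (-2.60 ± 0.26), Tfap2c fell (-1.64 ± 0.25) and Fgfr2 rose, of 12 measured. These made up 25% of the trophoblast list. The summed linear signal of the visceral endoderm markers was 385 and 416 in rsEpiSC E6.5, against 493 and 509 in ESC.

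**Figure D3:**
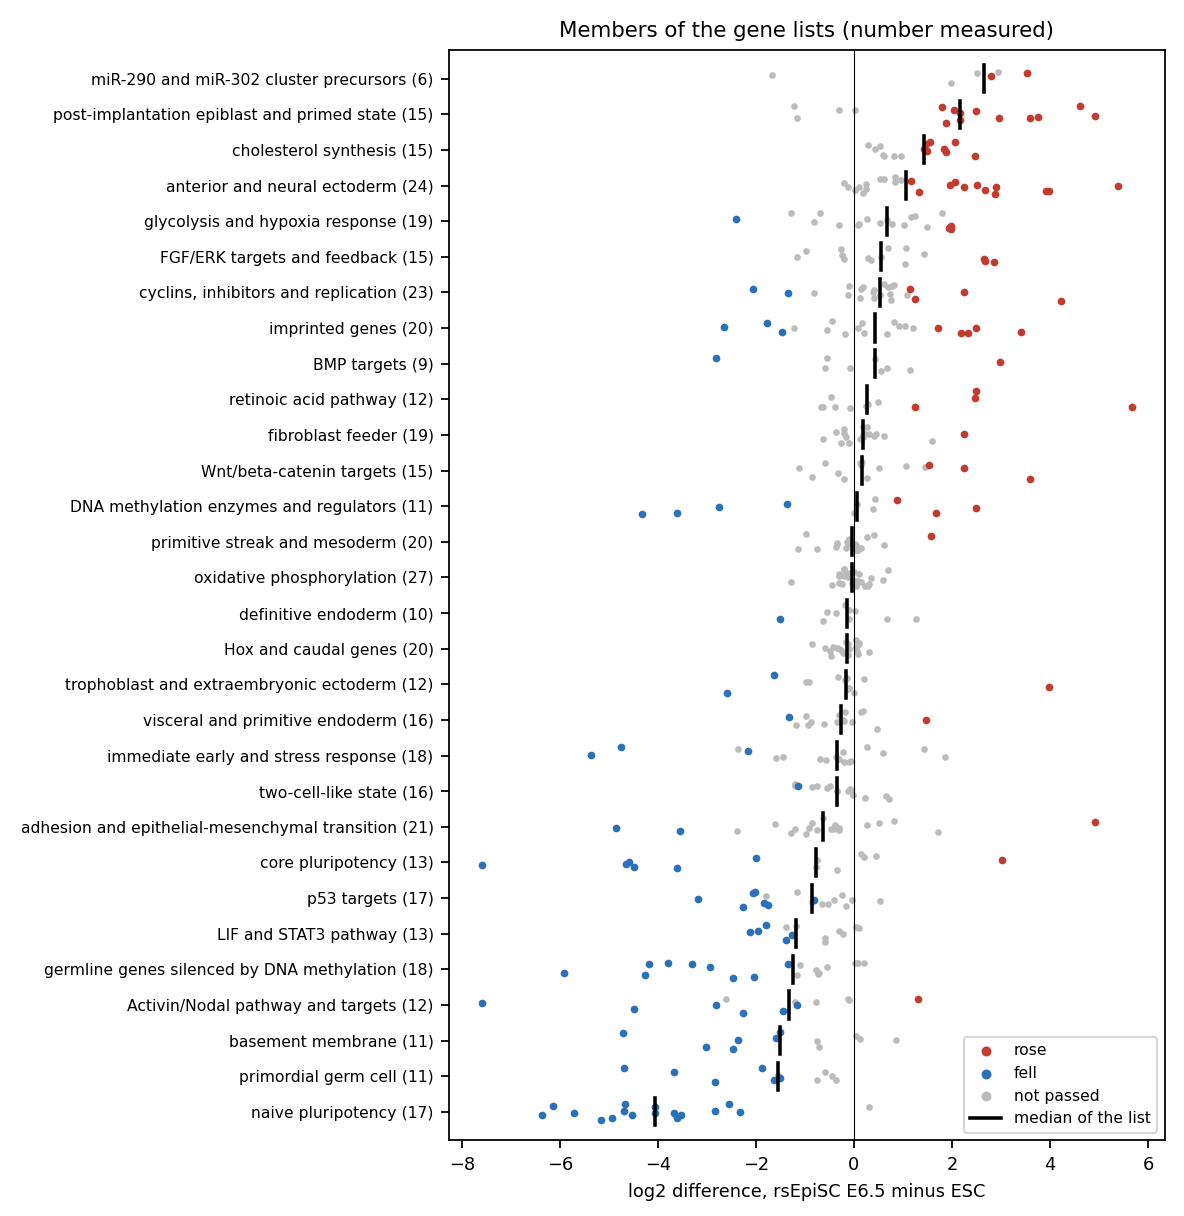
Log2 difference (rsEpiSC E6.5 minus ESC) of each measured member of 30 gene lists, ordered by the median of the list (black bar); red members rose, blue members fell and grey ones did not pass. The naive list lies at the low end with a median of -4.06, the primed list near the high end with 2.16, and the Hox, streak and oxidative phosphorylation lists around 0.

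Components of the pathways that the media act on were examined next. In the LIF and STAT3 list 5 of 13 members fell and none rose (median -1.18). Lifr, the LIF receptor gene, was at 5.43 and 5.78 in rsEpiSC E6.5, against 7.23 and 7.58 in ESC (-1.80 ± 0.30, adjusted p = 0.00251), and Stat3, the transcription factor it activates, at 4.94 and 4.95 in rsEpiSC E6.5, against 7.26 and 6.86 in ESC (-2.12 ± 0.31). Il6st, the shared receptor subunit gp130, fell by 1.39 (0.0202 as adjusted p), and the kinase gene Pim1, a STAT3 target, by 1.96 (0.0179 as adjusted p). Il6st did not pass without ESC replicate 1 or either rsEpiSC E6.5 array, and Pim1 without ESC replicate 2 or either rsEpiSC E6.5 array, and 2 to 4 members of the list fell with an array left out (2 without rsEpiSC E6.5 replicate 1 or 2, 3 without ESC replicate 1). The feedback inhibitors of FGF and ERK signalling that passed all rose, 3 of 15 in the list (median 0.54). That is 20%, beside 8.89% of autosomal genes that passed. Spred1, which blocks activation of Raf, was at 7.99 and 8.08 in rsEpiSC E6.5, against 5.56 and 4.81 in ESC (2.86 ± 0.33). Dusp4 and Dusp6 code for phosphatases of the MAP kinases, and were at 7.70 and 7.77 in rsEpiSC E6.5, against 4.60 and 5.56 in ESC (2.66 ± 0.36) and at 10.27 and 10.53 in rsEpiSC E6.5, against 9.09 and 6.35 in ESC (2.68 ± 0.59). The ESC arrays of Dusp6 were 2.74 apart, and it did not pass without either rsEpiSC E6.5 array. Etv5 (above) and Spry2 (-0.98 ± 0.49, adjusted p = 0.312), both targets of ERK, did not pass. The list count was 2 without either rsEpiSC E6.5 array.

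In the Activin and Nodal list 6 of 12 members fell and 1 rose (median -1.32). Besides Tdgf1 and Gdf3, Smad7, an inhibitor that both Nodal and BMP signals induce, was at 5.18 and 5.16 in rsEpiSC E6.5, against 8.13 and 7.85 in ESC (-2.82 ± 0.33, adjusted p = 0.000193). Nodal itself was at 3.70 and 5.02 in rsEpiSC E6.5, against 7.44 and 5.81 in ESC (-2.26 ± 0.56, adjusted p = 0.0258) and was not called without ESC replicate 1 or rsEpiSC E6.5 replicate 1. The receptor gene Acvr2b rose (1.32 ± 0.31), but not without ESC replicate 1 or either rsEpiSC E6.5 array, and the receptor gene Acvr1b did not pass (-0.78 ± 0.32). The list held 3 passing members without ESC replicate 1 or rsEpiSC E6.5 replicate 1 and 4 without rsEpiSC E6.5 replicate 2. Of 15 targets of Wnt and beta-catenin, 3 rose and none fell (median 0.17): Lef1, Ccnd1 (2.25 ± 0.57) and Nkd1, a feedback inhibitor (1.53 ± 0.35). The share that passed was 20% in this list and 22.2% in the BMP list below, beside 8.89% of autosomal genes. Axin2, a widely used target gene of the pathway, was at 5.82 and 6.16 in rsEpiSC E6.5, against 5.23 and 5.72 in ESC (0.51 ± 0.30, adjusted p = 0.425); its groups did not overlap but came close. Ccnd1 and Nkd1 did not pass without ESC replicate 2 or without either rsEpiSC E6.5 array, which left 1 member that rose without either rsEpiSC E6.5 array; 1 rose and 2 fell without ESC replicate 2. In the BMP list Id3, an inhibitor of differentiation induced by BMP, was at 8.06 and 8.96 in rsEpiSC E6.5, against 6.81 and 4.23 in ESC (2.99 ± 0.78, adjusted p = 0.0314), with ESC arrays 2.58 apart, and its call was lost without ESC replicate 2 or either rsEpiSC E6.5 array, leaving Smad7 as the 1 call; Id2 (0.67 ± 0.41) did not pass, of 9 measured.

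Of 12 measured genes of retinoic acid handling 4 rose and none fell (median 0.27), so 33.3% passed, beside 8.89% of autosomal genes. Crabp1, a cytoplasmic retinoic acid binding protein, was at 9.20 and 9.19 in rsEpiSC E6.5, against 6.70 and 6.75 in ESC (2.47 ± 0.44), and Cyp26a1, the enzyme that degrades retinoic acid, at 6.91 and 6.58 in rsEpiSC E6.5, against 4.27 and 4.24 in ESC (2.49 ± 0.39, adjusted p = 0.00151). Stra6, a receptor for vitamin A uptake, rose (1.25 ± 0.35) but did not pass in any fit with an array left out. The nuclear receptor genes Rara (-0.67 ± 0.26) and Rarg (0.25 ± 0.26) did not pass.

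Germline genes that are silenced by DNA methylation in somatic cells fell in 9 of 18 measured members and rose in none (median -1.25). The count was 8 or 9 with an array left out, and 5 where genes with a mean signal under 4 were left out before the test. Mael, which acts in the piRNA pathway that silences transposons, was at 2.67 and 2.79 in rsEpiSC E6.5, against 6.34 and 7.66 in ESC (-4.27 ± 0.40, adjusted p = 4.02e-05). Hormad1, a protein of the meiotic chromosome axis, was at 2.10 and 2.78 in rsEpiSC E6.5, against 7.92 and 5.30 in ESC (-4.18 ± 0.73), with ESC arrays 2.62 apart. Rnf17, a tudor domain protein of the germ line, was at 3.18 and 2.82 in rsEpiSC E6.5, against 6.26 and 7.30 in ESC (-3.78 ± 0.38). All rsEpiSC E6.5 signals of these genes were under 3.2, and all ESC signals above 5. Mov10l1 (-1.11 ± 0.36, adjusted p = 0.0857) and D1Pas1 (-0.73 ± 0.40) did not pass.

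The promoters of this list were searched for the E-box CACGTG, a sequence that reads the same on both strands, in windows of 250 bases before to 50 bases after each gene's start (RefSeq, GRCm38.p6). Of 18 members 16 had a window, and 10 of those held it (62.5%), against 8.09% of all genes with a window and 9.18% of the measured autosomal genes. Among members that fell and had a window, 5 of 7 held it, and among members that did not pass, 5 of 9. The members without a window, Rnf17 and Piwil2, were among those that fell. The motif TTCCCGC, on either strand, was in 6 of the 16 members, in 5.29% of all genes and in 6.9% of the measured autosomal genes. It was in 4 of the 7 members with a window that fell and in 2 of the 9 that did not pass. The stretches before the start sites of Mael and Hormad1, which fell, and of Tdrd1 and Brdt, which hold the E-box and did not pass, are shown with the E-box in capitals.
Mael, chr1:166238935-166238994, minus strand: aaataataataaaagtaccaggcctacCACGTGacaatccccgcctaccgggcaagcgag
Hormad1, chr3:95559593-95559652, plus strand: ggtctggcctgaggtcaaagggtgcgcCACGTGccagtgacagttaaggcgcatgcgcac
Tdrd1, chr19:56826149-56826208, plus strand: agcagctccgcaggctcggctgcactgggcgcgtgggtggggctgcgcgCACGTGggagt
Brdt, chr5:107331089-107331148, plus strand: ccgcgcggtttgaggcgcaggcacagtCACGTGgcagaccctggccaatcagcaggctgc
The sequences show only that these letters are present, and say nothing of which protein binds there or of the methylation of the sites.

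Enzymes and regulators of DNA methylation moved in both directions, 3 rising and 4 falling of 11. Dnmt3b, the methyltransferase of the early epiblast, was at 10.60 and 9.44 in rsEpiSC E6.5, against 8.26 and 6.81 in ESC (2.49 ± 0.55, adjusted p = 0.0138), and Dnmt3a, its relative, rose less (0.88 ± 0.25, adjusted p = 0.0481). Dnmt3l, a cofactor without catalytic activity, was at 3.58 and 4.26 in rsEpiSC E6.5, against 9.03 and 7.47 in ESC (-4.33 ± 0.47). Of the enzymes that oxidise methylcytosine, Tet2 was at 4.14 and 4.75 in rsEpiSC E6.5, against 8.54 and 7.58 in ESC (-3.61 ± 0.37), Tet1 fell (-1.36 ± 0.30) and Tet3 rose (1.68 ± 0.30). Zfp57, which keeps methylation at imprinted sites, fell (-2.75 ± 0.30), and the maintenance enzyme gene Dnmt1 did not pass (0.38 ± 0.19). Dnmt3b was not called without ESC replicate 2 or rsEpiSC E6.5 replicate 1, Tet1 without ESC replicate 1 or either rsEpiSC E6.5 array, Tet3 without rsEpiSC E6.5 replicate 2 and Dnmt3a without any of the 4 arrays; 4 members passed without either rsEpiSC E6.5 array.

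In the primordial germ cell list 6 of 11 fell and none rose (median -1.55), 5 of them members of other lists: Tcl1, Dppa3 and Prdm14 are naive genes, Tfap2c is a trophoblast gene and Prdm1 an endoderm gene. Tcl1, a coactivator of the kinase Akt, was at 3.26 and 3.42 in rsEpiSC E6.5, against 8.69 and 7.36 in ESC (-4.69 ± 0.37), Dppa3, which protects the maternal genome from demethylation, at 3.01 and 3.42 in rsEpiSC E6.5, against 6.97 and 6.78 in ESC (-3.66 ± 0.37), and Prdm14, a regulator of the naive state and the germ line, at 3.66 and 4.28 in rsEpiSC E6.5, against 7.29 and 6.31 in ESC (-2.83 ± 0.43). Kit, the receptor of stem cell factor, fell by 1.87 but not without ESC replicate 2 or either rsEpiSC E6.5 array (0.017 as adjusted p of all arrays), and 4 members fell in those fits. In the 2-cell-like list 1 of 16 fell, Zscan4a (-1.14 ± 0.31, adjusted p = 0.0367), which passed in no fit with an array left out; 1 other member fell without ESC replicate 2. With all arrays in the fit, 6.25% of the 2-cell-like list passed, beside 8.89% of autosomal genes. The Zscan4 genes are near-identical copies whose probe sets may share signal.

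Imprinted genes, transcribed from 1 parental allele, differed in both directions: 5 of 20 rose and 3 fell. Nnat, a membrane proteolipid of the developing brain, was at 9.58 and 7.04 in rsEpiSC E6.5, against 5.05 and 4.74 in ESC (3.41 ± 0.66, adjusted p = 0.0059), so its rsEpiSC E6.5 arrays differed by 2.54. Mest was at 9.89 and 9.77 in rsEpiSC E6.5, against 8.24 and 6.44 in ESC (2.49 ± 0.44), the adaptor gene Grb10 at 9.24 and 9.56 in rsEpiSC E6.5, against 6.83 and 7.30 in ESC (2.34 ± 0.25), and the zinc finger gene Peg3 at 8.99 and 8.95 in rsEpiSC E6.5, against 7.58 and 5.99 in ESC (2.19 ± 0.40). Plagl1, a zinc finger regulator of other imprinted genes, was at 3.77 and 3.49 in rsEpiSC E6.5, against 6.77 and 5.80 in ESC (-2.66 ± 0.34). The antisense transcript Kcnq1ot1 (-1.46 ± 0.38) and Impact, a regulator of translation (-1.77 ± 0.48), fell, but neither passed in any fit with an array left out; 5 members of the list passed without either rsEpiSC E6.5 array. Rian, a noncoding RNA of the Dlk1-Dio3 region, did not pass (0.67 ± 0.38).

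Among adhesion genes N-cadherin rose, and the call for E-cadherin depended on 1 array. Of 21 measured members 1 rose (Cdh2) and 2 fell, so 14.3% passed, beside 8.89% of autosomal genes. Cldn4, a tight junction claudin, was at 4.78 and 3.64 in rsEpiSC E6.5, against 9.02 and 9.12 in ESC (-4.86 ± 0.39, adjusted p = 1.36e-05), and Fn1, which codes for fibronectin, at 7.55 and 7.77 in rsEpiSC E6.5, against 10.81 and 11.61 in ESC (-3.55 ± 0.32). Cdh1, the gene of E-cadherin, was at 9.59 and 5.94 in rsEpiSC E6.5, against 10.06 and 10.25 in ESC (-2.39 ± 0.82, adjusted p = 0.106): the first rsEpiSC E6.5 array was close to the ESC arrays and the second more than 4 log2 units below them. Cdh1 fell without rsEpiSC E6.5 replicate 1 (adjusted p = 0.000442 in limma) and did not pass in the other 3 fits with an array left out. The count that passed was 6 without rsEpiSC E6.5 replicate 1 and 5 without ESC replicate 2. In the basement membrane list 6 of 11 fell and none rose (median -1.52; 5 or 6 with an array left out, and 1 rose without ESC replicate 2). Nid1, which links laminin to collagen, was at 4.91 and 5.36 in rsEpiSC E6.5, against 9.12 and 10.59 in ESC (-4.72 ± 0.48), the laminin chain gene Lama1 at 4.58 and 4.85 in rsEpiSC E6.5, against 7.54 and 7.93 in ESC (-3.02 ± 0.27), and Nid2 (-2.47 ± 0.26) and the perlecan gene Hspg2 (-2.36 ± 0.26) fell as well. Sparc (-0.76 ± 0.28) and Lamb2 (-0.71 ± 0.24) did not pass.

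Enzymes of cholesterol synthesis rose in 8 of 15 measured members, and all 15 differences were above 0 (median 1.42). Fdps, which makes farnesyl diphosphate, was at 10.88 and 10.68 in rsEpiSC E6.5, against 8.33 and 8.27 in ESC (2.48 ± 0.28, adjusted p = 0.000148), Dhcr7, which makes cholesterol in the last step, at 8.81 and 8.90 in rsEpiSC E6.5, against 6.76 and 6.83 in ESC (2.06 ± 0.28), and Hmgcs1, an early enzyme of the pathway, at 10.93 and 10.80 in rsEpiSC E6.5, against 8.58 and 9.37 in ESC (1.89 ± 0.24). Mvd, which decarboxylates a mevalonate intermediate, rose as well (1.84 ± 0.33). The signals of rsEpiSC E6.5 lay above those of ESC on both arrays in each. With either rsEpiSC E6.5 array left out 4 members rose.

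In glycolysis and hypoxia response 3 of 19 rose and 1 fell (median 0.68), so 21.1% passed, beside 8.89% of autosomal genes. None of 27 genes of oxidative phosphorylation passed in limma, and 4 of them had an unadjusted p under 0.05, beside 19.5% of autosomal genes. Slc16a3, which exports lactate, rose (1.99 ± 0.38), as did the triose phosphate isomerase gene Tpi1 (1.97 ± 0.44) and the mitophagy gene Bnip3 (1.94 ± 0.47), and the phosphofructokinase gene Pfkp fell (-2.41 ± 0.26, adjusted p = 0.000105). Without ESC replicate 2 or rsEpiSC E6.5 replicate 1, 1 member rose and 1 fell, without rsEpiSC E6.5 replicate 2 only 1 fell, and without ESC replicate 1, 8 rose and 2 fell. Tpi1 and Bnip3 did not pass without ESC replicate 2 or either rsEpiSC E6.5 array, nor Slc16a3 without rsEpiSC E6.5 replicate 2. In oxidative phosphorylation 1 rose and 1 fell without ESC replicate 1. Gapdh, a glycolytic enzyme, did not pass (12.50 and 12.57 in rsEpiSC E6.5, against 12.44 and 12.40 in ESC, a difference of 0.11 ± 0.14).

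Of 23 cyclins, inhibitors and replication genes 4 rose and 2 fell (median 0.53). The cyclin gene Ccnd1 was at 9.03 and 9.00 in rsEpiSC E6.5, against 7.44 and 6.09 in ESC, besides Ccnd2 above, while Cdkn1a, which codes for the inhibitor p21, was at 8.28 and 9.41 in rsEpiSC E6.5, against 10.98 and 10.82 in ESC (-2.06 ± 0.47, adjusted p = 0.0159) and Cdkn2a fell (-1.35 ± 0.30). The proliferation marker Mki67 (1.15 ± 0.28) and the helicase subunit gene Mcm7 (1.24 ± 0.35) rose. Apart from Ccnd2, each of these lost its call without ESC replicate 2 and without rsEpiSC E6.5 replicate 1, and 1 member passed in either fit, with 2 passing without rsEpiSC E6.5 replicate 2. Targets of p53 fell in 7 of 17 measured members and rose in none (median -0.85). Plk2, a stress-induced kinase, was at 5.45 and 5.86 in rsEpiSC E6.5, against 8.38 and 9.29 in ESC (-3.18 ± 0.41, adjusted p = 0.000383), and Pmaip1, the apoptosis gene Noxa, at 4.52 and 4.47 in rsEpiSC E6.5, against 5.66 and 7.83 in ESC (-2.25 ± 0.55), and Trp53inp1 fell (-2.02 ± 0.54). The count of p53 targets was 3 without ESC replicate 2 and 2 without rsEpiSC E6.5 replicate 1, and both Pmaip1 and Trp53inp1 were lost without ESC replicate 2 or either rsEpiSC E6.5 array.

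In the stress response list 3 of 18 fell and none rose (median -0.34), so 16.7% passed, beside 8.89% of autosomal genes. Gadd45b, induced by stress and DNA damage, was at 5.35 and 4.58 in rsEpiSC E6.5, against 9.61 and 11.03 in ESC (-5.36 ± 0.55), and Hspb1, a small heat shock protein, at 5.05 and 5.10 in rsEpiSC E6.5, against 9.89 and 9.77 in ESC (-4.75 ± 0.23, adjusted p = 3.63e-07). The ESC signals of both were above 9 and the rsEpiSC E6.5 signals at or under 5.35. Ddit3, a factor of the integrated stress response, fell (-2.15 ± 0.58) but passed in no fit with an array left out. The list count was 2 without either rsEpiSC E6.5 array and 5 without ESC replicate 1.

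Precursor genes of the miR-302 cluster rose in part. These microRNAs are abundant in primed pluripotent cells, and miR-290 and its neighbours in naive ones. Of 16 genes listed 6 were measured: 2 rose and none fell, and Mir290a and Mir302d were among those that did not pass. The share that passed was 33.3%, beside 8.89% of autosomal genes. Differences were above 0 for 5 members and below 0 for 1, the lowest at -1.68. The mature sequences, from RefSeq (GRCm38.p6), are given for the measured genes that have a 3p entry, with the seed (bases 2 to 8) in capitals, because the seed selects the target RNAs.
mmu-miR-302b-3p, chr3:127545275-127545297, plus strand: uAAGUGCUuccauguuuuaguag
mmu-miR-302d-3p, chr3:127545665-127545687, plus strand: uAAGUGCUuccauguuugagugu
mmu-miR-302c-3p, chr3:127545406-127545427, plus strand: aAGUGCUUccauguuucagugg
mmu-miR-367-3p, chr3:127545779-127545800, plus strand: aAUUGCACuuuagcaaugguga
mmu-miR-290a-3p, chr7:3218674-3218697, plus strand: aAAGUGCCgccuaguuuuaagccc
The entries of miR-302b and miR-302d share the seed AAGUGCU. The seed was AGUGCUU in the entry of miR-302c, AUUGCAC in that of miR-367 and AAGUGCC in that of miR-290a. Mir302a was at 5.58 and 4.94 in rsEpiSC E6.5, against 0.85 and 2.59 in ESC (3.54 ± 0.72, adjusted p = 0.00827) and Mir302c at 5.56 and 5.12 in rsEpiSC E6.5, against 1.97 and 3.09 in ESC (2.80 ± 0.53, adjusted p = 0.00569). Both rsEpiSC E6.5 arrays lay above both ESC arrays. Mir302b (6.15 and 4.55 in rsEpiSC E6.5, against 2.27 and 4.46 in ESC) and Mir367 (6.26 and 4.97 in rsEpiSC E6.5, against 2.23 and 3.12 in ESC) had the same order but did not pass (adjusted p = 0.472 and 0.109). Mir302a did not pass without ESC replicate 1 or rsEpiSC E6.5 replicate 1, nor Mir302c without rsEpiSC E6.5 replicate 1; in that last fit 1 other precursor fell. The array measures the precursor region, not the mature microRNA.

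**Figure D4:**
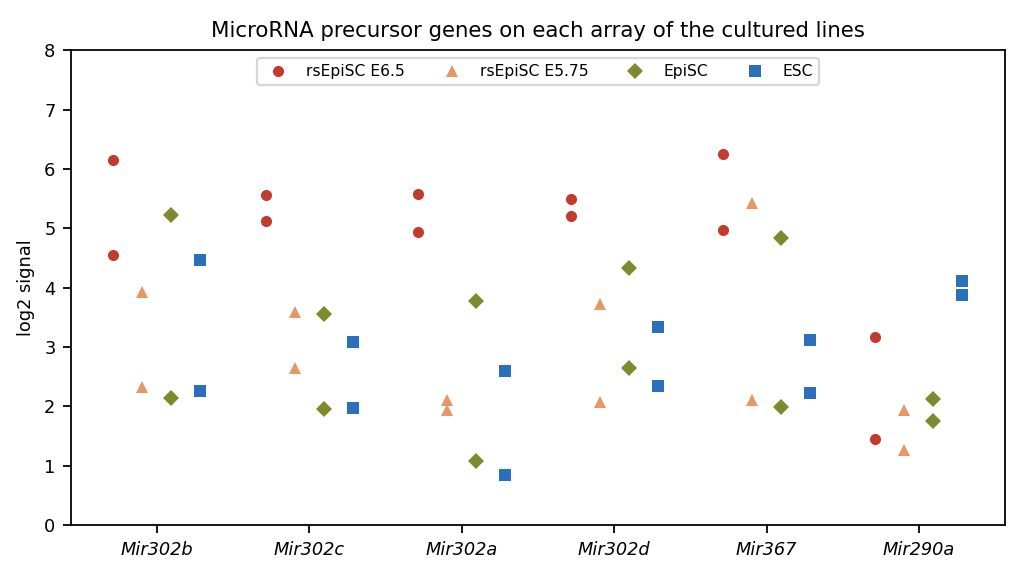
Log2 signal of 6 microRNA precursor genes on each array of rsEpiSC E6.5 (red circles), rsEpiSC E5.75 (orange triangles), EpiSC (green diamonds) and ESC (blue squares). For Mir302a and Mir302c both rsEpiSC E6.5 arrays lie above 4.9, higher than all arrays of the other cultured groups.

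The difference between the rsEpiSC stages was tested directly, since comparisons that share the ESC arrays cannot be set against each other. Between rsEpiSC E6.5 and rsEpiSC E5.75, 15 autosomal genes passed (0.0712%), 12 higher (0.057%) and 3 lower (0.0142%) in rsEpiSC E6.5, and 981 had an unadjusted p under 0.05 (4.66%). Of the 30 lists, 2 had a member among them: Utf1 in the core list and Nnat in the imprinted list. None of the 17 naive genes passed (1 with an unadjusted p under 0.05), and none of the 24 anterior and neural genes (5). Nnat was at 9.58 and 7.04 in rsEpiSC E6.5, against 3.78 and 3.47 in rsEpiSC E5.75 (4.69 ± 0.66, adjusted p = 0.0209). Its rsEpiSC E6.5 arrays lay above both arrays of rsEpiSC E5.75, and replicate 1 further than replicate 2. Utf1 was at 9.62 and 8.76 in rsEpiSC E6.5, against 5.36 and 6.37 in rsEpiSC E5.75 (3.32 ± 0.37, adjusted p = 0.00587), although it did not pass between rsEpiSC E6.5 and ESC. Car4 was at 9.68 and 9.45 in rsEpiSC E6.5, against 6.92 and 5.92 in rsEpiSC E5.75 (3.14 ± 0.37). Tubb2a, a beta-tubulin, was at 5.89 and 6.29 in rsEpiSC E6.5, against 3.07 and 3.24 in rsEpiSC E5.75 (2.94 ± 0.35), Lyplal1, a lysophospholipase-like gene, at 7.13 and 6.82 in rsEpiSC E6.5, against 4.14 and 3.93 in rsEpiSC E5.75 (2.94 ± 0.31), and Nmral1, a redox sensor, at 8.05 and 8.14 in rsEpiSC E6.5, against 5.86 and 5.42 in rsEpiSC E5.75 (2.46 ± 0.38). Lower in rsEpiSC E6.5 were Thbs1, which codes for thrombospondin, at 4.45 and 4.81 in rsEpiSC E6.5, against 7.10 and 7.33 in rsEpiSC E5.75 (-2.59 ± 0.37), Pmel, a melanosome protein, at 4.98 and 5.12 in rsEpiSC E6.5, against 7.35 and 7.74 in rsEpiSC E5.75 (-2.50 ± 0.35), and the transcription factor gene Dmrt3 at 5.26 and 5.66 in rsEpiSC E6.5, against 8.42 and 7.41 in rsEpiSC E5.75 (-2.46 ± 0.35). None of those 3 passed between rsEpiSC E6.5 and ESC. No gene of the 15 passed in every fit with an array left out. The count was 1 without rsEpiSC E6.5 replicate 1, 13 without rsEpiSC E6.5 replicate 2, 4 without rsEpiSC E5.75 replicate 1 and 6 without rsEpiSC E5.75 replicate 2. Fitted on the 4 arrays alone it was 149. The stages also differed in genes of the sex chromosomes, which these counts leave out. Xist was at 3.17 and 2.65 in rsEpiSC E6.5, against 8.23 and 10.19 in rsEpiSC E5.75 (-6.30 ± 0.54, adjusted p = 0.000718 in limma), and Kdm5d at 6.30 and 6.14 in rsEpiSC E6.5, against 4.56 and 2.53 in rsEpiSC E5.75 (2.67 ± 0.48, adjusted p = 0.101). The part of these sex-linked differences in the autosomal ones was not tested.

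Widely used marker genes did not pass between the stages: Pou5f1 (0.67 ± 0.33), Sox2 (-0.28 ± 0.24), Nanog (1.06 ± 0.35), Otx2 (-0.12 ± 0.33), Axin2 (-0.12 ± 0.30) and Cdh2 (-0.21 ± 0.60). The differences were larger, with wide errors, for Cdh1 (3.23 ± 0.82, adjusted p = 0.36), Fgf5 (2.34 ± 0.65, adjusted p = 0.468) and Dnmt3b (1.79 ± 0.55, adjusted p = 0.581), which did not pass either. The naive genes Klf4 (0.15 ± 0.27), Esrrb (0.14 ± 0.31) and Zfp42 (-0.18 ± 0.42) did not pass. Of the genes named without a call between the stages, 1 gained a call when only the 4 arrays compared were fitted. With array weights 2 gained a call.

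Against EpiSC, the primed line kept with FGF2 and Activin A, 829 autosomal genes passed (3.94%), 273 higher (1.3%) and 556 lower (2.64%) in rsEpiSC E6.5, and 3006 had an unadjusted p under 0.05 (14.3%). The count was 319 without EpiSC replicate 1, 323 without rsEpiSC E6.5 replicate 1 and 233 without rsEpiSC E6.5 replicate 2. Anterior and neural genes were again higher: 11 of 24 rose against EpiSC and none fell (1.3% of autosomal genes rose), 7 without EpiSC replicate 1 or rsEpiSC E6.5 replicate 2. Hesx1 was at 8.71 and 6.97 in rsEpiSC E6.5, against 3.36 and 3.12 in EpiSC (4.60 ± 0.61, adjusted p = 0.00128) and Ptn at 8.96 and 9.42 in rsEpiSC E6.5, against 5.31 and 5.23 in EpiSC (3.93 ± 0.38). Sox2 was at 9.63 and 10.05 in rsEpiSC E6.5, against 6.89 and 6.82 in EpiSC (2.99 ± 0.24, adjusted p = 5.39e-05). Otx2 (1.58 ± 0.33) and Cdh2 (3.10 ± 0.60) rose, and Nanog fell (-2.41 ± 0.35, adjusted p = 0.00237). Otx2 passed in no fit with an array left out, and Cdh2 not without EpiSC replicate 1 or either rsEpiSC E6.5 array. Car4 (4.86 ± 0.37), Nnat (3.99 ± 0.66), Tmem223 (4.73 ± 0.33) and Rian (4.73 ± 0.38) were the other genes of the 6 highest, of which Nnat did not pass without EpiSC replicate 1.

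Lower in rsEpiSC E6.5 than in EpiSC were Tdgf1, at 3.80 and 3.42 in rsEpiSC E6.5, against 10.24 and 11.52 in EpiSC (-7.27 ± 0.61), Platr10 (-5.43 ± 0.39), Gadd45b (-5.21 ± 0.55) and the neprilysin gene Mme (-5.09 ± 0.43), and further Cryab, a small heat shock protein, at 5.01 and 5.01 in rsEpiSC E6.5, against 10.45 and 11.36 in EpiSC (-5.90 ± 0.47), and the guidance gene Sema3e (-4.59 ± 0.36). In the adhesion list 10 of 21 fell and 1 rose against EpiSC (2.64% of autosomal genes fell), in the basement membrane list 7 of 11 fell, and in the p53 list 6 of 17. With an array left out, 5 adhesion genes fell without EpiSC replicate 2 or rsEpiSC E6.5 replicate 2, and 3 basement membrane genes without either rsEpiSC E6.5 array and 4 without EpiSC replicate 1. Of the p53 targets, 3 fell without rsEpiSC E6.5 replicate 1. Of the 19 markers of feeder fibroblasts 3 also fell against EpiSC, Tagln, Acta2 and Col1a2, the lowest by a difference of -3.76, and none rose. The summed linear signal of these markers was 762 and 833 in rsEpiSC E6.5, against 1617 and 2397 in EpiSC. Xist was at 3.17 and 2.65 in rsEpiSC E6.5, against 9.84 and 8.72 in EpiSC. The part of feeder RNA and of sex-linked differences in these counts was not tested. None of the 18 germline genes passed against EpiSC in limma, and none had an unadjusted p under 0.05; their median difference was -0.05. In the naive list 4 of 17 measured members fell against EpiSC and none rose (median -0.30). The share that passed was 23.5%, beside 3.94% of autosomal genes. Fbxo15 was among those that fell (-1.93 ± 0.30). Klf4 (-0.45 ± 0.27), Esrrb (0.30 ± 0.31) and Zfp42 (-0.05 ± 0.42) of that list did not pass. Nor did Pou5f1 (-0.80 ± 0.33), Axin2 (0.77 ± 0.30), Fgf5 (1.04 ± 0.65), Dnmt3b (1.58 ± 0.55) and Cdh1 (-2.86 ± 0.82).

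Epiblast tissue was measured on the same platform and gives a scale for these levels, though tissue and culture were not compared by a test here. Car4 averaged 9.57 in rsEpiSC E6.5, 4.27 in ESC and 10.22 in epiblast E6.5, and Nnat averaged 8.31 in rsEpiSC E6.5, 4.90 in ESC and 8.97 in epiblast E6.5. Otx2 averaged 9.17 in rsEpiSC E6.5, 5.42 in ESC and 9.03 in epiblast E6.5. Fgf5 averaged 6.31 in rsEpiSC E6.5, 3.36 in ESC and 8.97 in epiblast E6.5, so its level in the line was between the others. For Hesx1 the line was above both, with 7.84 in rsEpiSC E6.5, 3.86 in ESC and 4.33 in epiblast E6.5. For Tdgf1 it was below both, with 3.61 in rsEpiSC E6.5, 11.21 in ESC and 8.91 in epiblast E6.5. Rpl10l averaged 1.78 in rsEpiSC E6.5, 7.69 in ESC and 6.52 in epiblast E6.5.

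**Figure D5:**
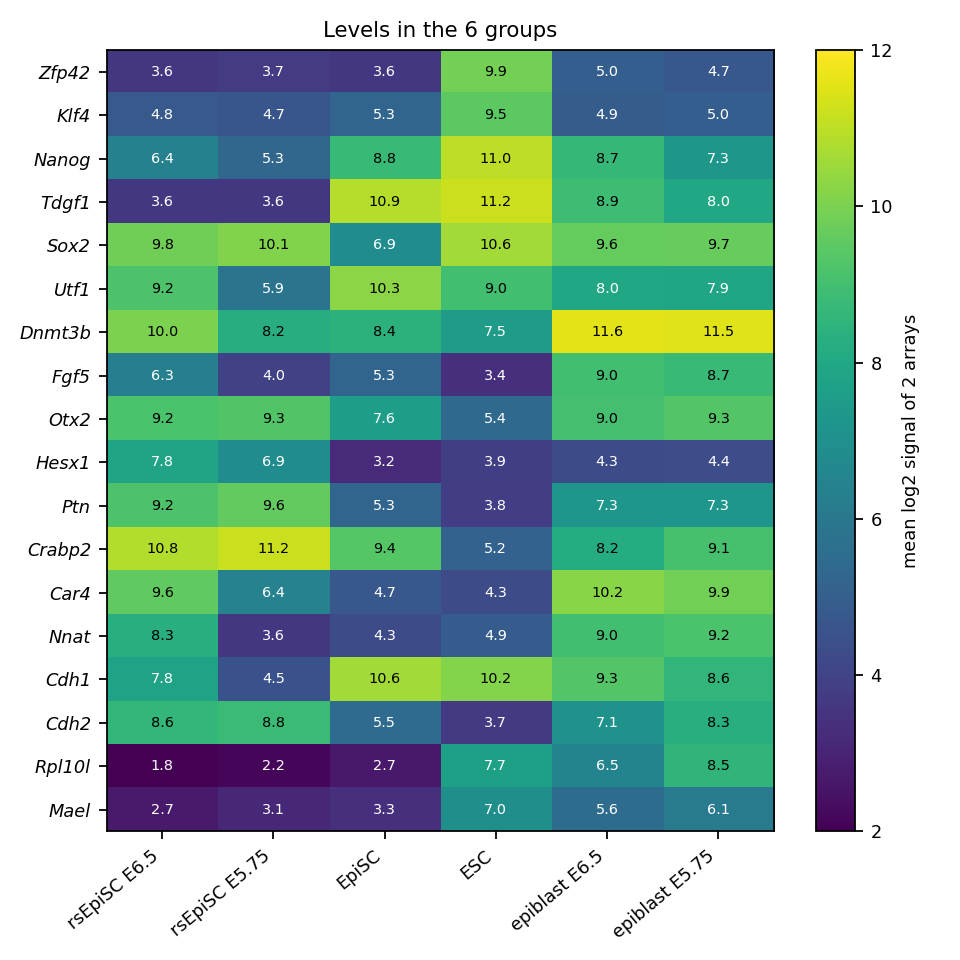
Mean log2 signal (2 arrays) of 18 genes in rsEpiSC E6.5, rsEpiSC E5.75, EpiSC, ESC and epiblast tissue of E6.5 and E5.75, from dark (low) to yellow (high). Tdgf1 is dark in both rsEpiSC groups and bright in EpiSC, ESC and tissue, and Nnat is bright in rsEpiSC E6.5 and tissue.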

How the data were processed

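RNA of 12 samples in 6 groups of 2 was amplified, labelled with biotin and hybridised to 1-colour expression arrays. The deposited values are log2 signals of 41345 probe sets, made by the authors with RMA in oligo per the submitters' processing notes, without versions. The labels' protocol names a human array, but the probe set identifiers matched a mouse probe table, which named 23521 probe sets with 1 symbol. Where a gene had several, the probe set with the highest mean signal stood for it. The values were fitted in limma 3.58.1 (R 4.3.3), with all 12 arrays, moderated variances with a trend and Benjamini-Hochberg adjustment over all genes; the fit was tested on simulated data. Precision is limited by 2 arrays per group. Named genes were the 15 highest and 15 lowest (6 and 6 in the other comparisons), up to 4 per direction and 2 that did not pass from each list, and 12 marker genes. The members and lists were chosen with earlier results of these data known. Alternatives were other arrays in the fit, left-out arrays, a replicate block, normalization, a signal filter, probe set choice, variance options and autosomal genes alone.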

Additional observations from a re-analysis of the deposited data

Results flagged for a closer look

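The 15 genes below passed the direct test between the rsEpiSC lines of E6.5 and E5.75, that is, their difference from any common group differs between the stages; values are log2 differences of rsEpiSC E6.5 minus rsEpiSC E5.75, ± SE, and no gene of the 15 passed with each of the 4 arrays left out. Nnat was 4.69 ± 0.66 higher, Utf1 3.32 ± 0.37, Car4 3.14 ± 0.37, Tubb2a 2.94 ± 0.35 and Lyplal1 2.94 ± 0.31. The small nucleolar RNA gene Snora19 was 2.79 ± 0.33 higher and Taf1d 1.06 ± 0.16. Nmral1 was 2.46 ± 0.38 higher, the potassium channel gene Kcnj3 2.27 ± 0.30, the zinc finger gene Zfp979 2.20 ± 0.33, Klhl22 2.18 ± 0.33 and Ankrd26 1.90 ± 0.26. Dmrt3 (-2.46 ± 0.35), Pmel (-2.50 ± 0.35) and Thbs1 (-2.59 ± 0.37) were lower in rsEpiSC E6.5.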

How the results depend on the processing

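The count of genes that passed against ESC (1872) was 1185 when every probe set was tested, and 781 to 1891 with an array left out. Against rsEpiSC E5.75 (15) it was 149 with only the 4 arrays compared (64 higher, 85 lower), 8 with the 8 arrays of cultured lines, 5 when every probe set was tested, 242 with array weights and 1 to 13 with an array left out. Against EpiSC (829) it was 378 when every probe set was tested, 1820 with array weights and 233 to 702 with an array left out. The smaller counts come with fewer arrays or more probe sets tested; the cause of the other shifts was not tested. All other planned settings stayed within 1.5 times these counts. Of the 115 genes named with a call against ESC, 94 passed on the 4 arrays alone, 89 with every probe set tested and 109 after quantile normalization; none of the 115 changed direction in any setting run. Some genes without a call changed sign with an array left out: Utf1 against ESC (-0.23 to 0.63), and against rsEpiSC E5.75 Esrrb (-0.041 to 0.31), Axin2 (-0.38 to 0.14), Cdh2 (-0.49 to 0.075) and Otx2 (-0.36 to 0.12). Against EpiSC these were Esrrb (-0.013 to 0.61) and Fgf5 (-0.30 to 2.37), and Zfp42 (-0.16 to 0.070).

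Replicate numbers did not pair the arrays of rsEpiSC E6.5 with those of the groups it was compared with. Over genes, deviations of same-numbered arrays correlated at 0.042 with ESC, 0.0074 with rsEpiSC E5.75 and -0.033 with EpiSC. Between ESC and EpiSC, which were not compared here, the value was -0.27, the largest in size of all pairs of groups. Its cause was not tested. With the replicate number as a block, 1743 genes passed against ESC (839 rose, 904 fell), 11 against rsEpiSC E5.75 and 731 against EpiSC. Arrays give no counting depth, so 2 arrays per group and signals near background limit the precision.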

Other observations

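Several epithelial genes were higher on replicate 1 of rsEpiSC E6.5 than on replicate 2, and the genes named here were chosen after their values were seen. Of the 23 autosomal genes that differed at least 4-fold between those arrays, the claudin gene Cldn6 was at 6.35 and 3.52, the vesicle trafficking gene Rab25 at 7.10 and 3.97 and the splicing regulator gene Esrp1 at 7.22 and 4.59 (replicates 1 and 2). The adhesion gene Epcam was at 8.38 and 6.28 and the protease gene St14 at 6.29 and 4.22, and Cdh1, at 9.59 and 5.94, was higher on replicate 1 as well. In ESC, Rab25 was at 4.35 and 4.39, Esrp1 at 4.86 and 5.92 and Epcam at 9.10 and 8.13. Others of the 23 went the other way: Krtdap, a gene of differentiating keratinocytes, was at 6.70 and 9.35, the lysosomal enzyme gene Hexa at 5.54 and 8.55 and the annexin gene Anxa5 at 6.20 and 8.22. The values are a description, with no test.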
